A study of Mus musculus with 24 samples.

Results

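A small fraction of the CD8+ T cells in subcutaneous Panc02 tumors carried transcripts of *Gzmd*, *Gzme*, and *Gzmg*, and these cells are described here. A barcode was taken as a Gzm+ CD8+ T cell if it had at least 1000 UMIs (unique transcript molecules) with under 10% of them mitochondrial. It also had at least 1 UMI of *Cd3d*, *Cd3e*, or *Cd3g*, at least 1 of *Cd8a* or *Cd8b1*, none of *Cd4* or *Mki67*, at most 1 of the macrophage gene *C1qb*, and 3 or more UMIs of *Gzmd*, *Gzme*, and *Gzmg* together. These limits found 238 cells among 10255 CD8+ T cells that met every other condition, called the gated CD8+ T cells below. The remaining gated cells were 9842 with no UMI of the 3 genes (Gzm-zero cells) and 175 with 1 or 2. The counts of the 3 granzymes thus chose the cells, and their levels are given as a description without a test.

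Granzymes are serine proteases that cytotoxic lymphocytes store in granules with perforin and release toward a target cell. Granzymes A and B are common to cytotoxic T and NK cells, whereas the genes for granzymes C to G lie beside *Gzmb* in the mouse and are known from strongly or repeatedly stimulated T cells and from NK cells. Their natural substrates are less well defined than those of granzyme B. T cells that meet antigen over a long time in a tumor pass through a stem-like state marked by *Tcf7* into an exhausted state marked by *Pdcd1* and *Havcr2*, in which killing genes can stay on.

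Panc02 is a mouse pancreatic cancer cell line, implanted here under the skin of male C57BL/6 mice. The 8 treatments were PancVAX + Anti-PD-1 + Anti-CTLA-4, each pair of these (PancVAX + Anti-PD-1, PancVAX + Anti-CTLA-4, Anti-PD-1 + Anti-CTLA-4), each alone (PancVAX, Anti-PD-1, Anti-CTLA-4), and Isotype Control. PancVAX is a vaccine of neoantigen peptides that also held the adjuvant AddaVax and a STING agonist, and mice without it received PBS, so that the peptides and the adjuvants cannot be told apart. Mice were 6–7 weeks old, the vaccine was given on days 12 and 19 and the antibodies from days 12 (anti–PD-1) and 15 (anti–CTLA-4), and tumors were harvested on day 38. Tumors were pooled by treatment before each library was made, so that no value belongs to 1 mouse. Each treatment had 1 library of the whole dissociated tumor and 1 enriched for immune cells on Percoll, with T cell receptor (TCR) sequences for the latter, and the sum of both is called its pool. The sources used here do not say whether the same mice went into both, and *P* values measure only the spread between pools.

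The Percoll library of PancVAX + Anti-PD-1 stood apart. It held 31 Gzm+ cells against 7 in the whole-tumor library of that treatment, and 13 of the 31 had counts close to those of another CD3+ CD8+ barcode of the library (chi-square per degree of freedom under 1.1, where sampling noise alone gives about 1). Of these 13, 12 belonged to 1 profile shared by 189 barcodes. In that library 31.6% of gated cells had such a near-identical barcode, against 0.760–9.41% in the other 15. Over all libraries 16 of the 238 Gzm+ cells had one, and counting each profile once left 226. The shares by treatment, the comparisons with Gzm-zero cells, and the clones are therefore also given with near-identical barcodes counted once or without that library.

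Most of the chosen cells held *Gzmd* and *Gzme*, which with *Gzmg* had chosen them, and fewer held *Gzmg*. *Gzmd* was detected in 214 of 238 cells (89.9%), *Gzme* in 219 (92.0%), and *Gzmg* in 65 (27.3%). *Gzmf*, which the limits did not use, was detected in 212 (89.1%), against 6.59% of Gzm-zero cells and 23.1% of Gzm-zero cells with both *Pdcd1* and *Havcr2* UMIs. *Gzmc* was detected in 188 (79.0%), against 4.50% and 13.6% in the same 2 reference gates, and *Gzmn* in 4. Granzymes C to G are close paralogs, reads could be split among them in counting, and values of single members of the group are uncertain. Macrophages should lack the 3 genes, and 13 of 21976 barcodes of a *C1qb* macrophage gate (0.0592%; median 7250 UMIs) had 3 or more UMIs of them. The gated CD8+ T cells had 2.32% at a lower median of 3988 UMIs.

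**Figure D1:**
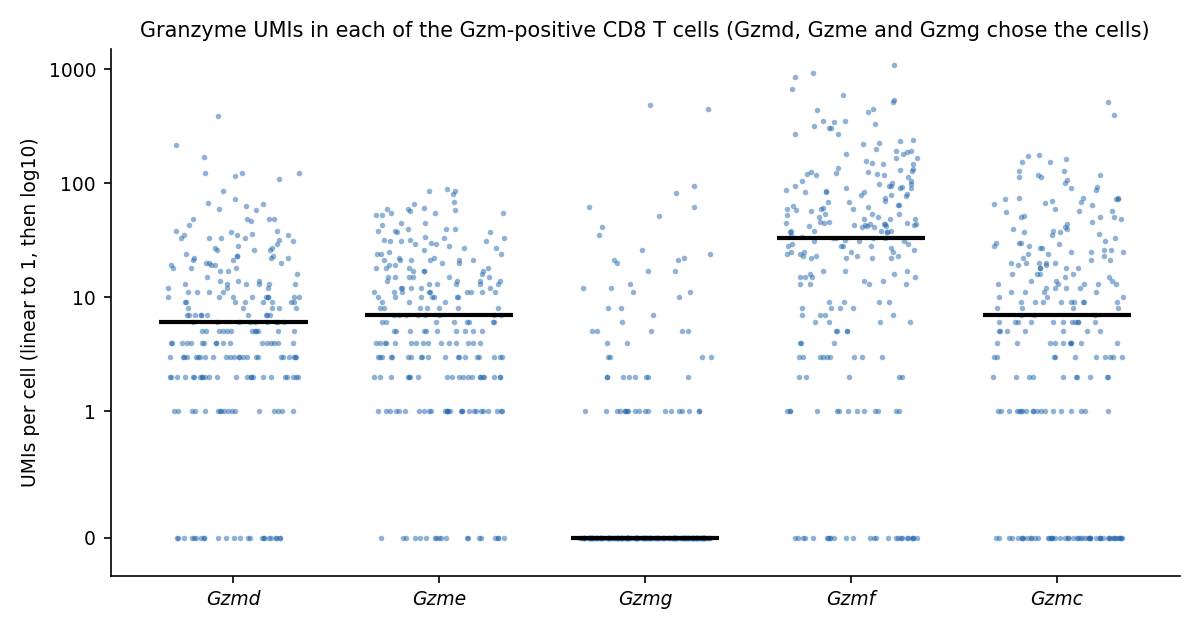
UMIs per cell (vertical axis, linear to 1 and log10 above) of 5 granzyme genes in each of the 238 Gzm+ CD8+ T cells (points), with the median over cells as a bar. *Gzmd*, *Gzme*, and *Gzmg* chose the cells, the median of *Gzmf* was 33 UMIs, and most cells had no UMI of *Gzmg*.

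The 5 genes share their upstream sequence, and the stretch below shows how alike they are. They lie on the minus strand of chromosome 14 in a span of 144.716 kb that also holds *Gzmn* and *Gzmb* (chr14:56117619-56262334, RefSeq, GRCm38.p6). Each line gives 120 bases 5′ to 3′ upstream of a RefSeq start site of the gene, with capitals for the letters TGTGGT (the core of Runx motifs) and TGACGTCA (the cAMP response element, CRE).
*Gzmd* (chr14:56132603-56132722): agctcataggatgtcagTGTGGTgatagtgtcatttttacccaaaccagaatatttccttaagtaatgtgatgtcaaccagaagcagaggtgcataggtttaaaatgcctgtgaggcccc
*Gzme* (chr14:56120636-56120755): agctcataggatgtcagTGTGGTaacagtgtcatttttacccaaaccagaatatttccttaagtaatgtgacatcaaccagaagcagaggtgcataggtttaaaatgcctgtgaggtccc
*Gzmg* (chr14:56159605-56159724): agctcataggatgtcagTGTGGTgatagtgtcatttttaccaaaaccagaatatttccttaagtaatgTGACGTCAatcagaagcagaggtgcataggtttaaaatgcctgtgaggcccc
*Gzmf* (chr14:56211438-56211557): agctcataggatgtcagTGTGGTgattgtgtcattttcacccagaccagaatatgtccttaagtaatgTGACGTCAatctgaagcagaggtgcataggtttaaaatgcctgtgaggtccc
*Gzmc* (chr14:56234663-56234782): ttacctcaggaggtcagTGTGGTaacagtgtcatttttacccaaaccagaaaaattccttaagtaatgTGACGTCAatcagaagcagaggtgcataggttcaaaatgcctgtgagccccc
The start sites used for *Gzmd* and *Gzmc* lie inside the annotated spans of these genes (chr14:56129556-56132603 and chr14:56231397-56241647), by a few bases in *Gzmd* and much further in *Gzmc*. Over promoters of 250 bases before to 50 after the start site, identity among the 5 genes was 74.9–93.4% (median 82.1% over 10 pairs), against 44.4–51.4% in the 11 pairs that include *Gzmn* or *Gzmb*. TGTGGT stood in all 5 promoters on either strand, also in that of *Gzmb*, and in 16.8% of 32851 promoters. TGACGTCA stood in 3 of the 5 (*Gzmg*, *Gzmf*, and *Gzmc*) and in 1.79% of all. The AP-1 letters TGANTCA (7.81% of all promoters) and the NFAT letters GGAAAA (23.4%) stood in none of the 5, which says only that these letters are not in this window.

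Within the chosen cells the granzymes varied over a wide range. The sum of *Gzmd*, *Gzme*, and *Gzmg* had a median of 14 UMIs (quartiles 5 and 41.75) and reached 913 in 1 cell, and 143 cells had at least 10. At the limit, 27 gated cells had 3 UMIs and were taken, and 37 had 2 and were not. *Gzmd*, *Gzme*, *Gzmf*, and *Gzmc* without *Gzmg* was the most frequent combination (97 cells), followed by all 5 (56 cells). The 65 cells with a *Gzmg* UMI had medians of 105 *Gzmf*, 27 *Gzmc*, 22 *Gzmd*, and 17 *Gzme* UMIs, against 23, 4, 4, and 5 in the 173 without, at median depths of 9678 and 8892 UMIs. Because these genes chose the cells and may share reads, this is a description only.

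Gzm+ cells were deeper than the gate they came from. Their median was 9126 UMIs against 3988, and 99 of 238 (41.6%) had more than 10000 UMIs against 9.73% of gated cells. The limits of the study (200–3000 genes, at most 10000 UMIs, and no hemoglobin UMI) would keep 138. No doublet caller was run, and 1 Gzm+ cell with a TCR had more than 1 TRB chain. The limit of 3 UMIs favors deep cells, and the shares and the comparisons with Gzm-zero cells below are therefore repeated after thinning or among cells of 3000–10000 UMIs, a window that narrows the difference in depth without equalizing it. The comparisons by treatment within Gzm+ cells and of clones were not.

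To describe how treatment related to these cells, their share of gated CD8+ T cells was compared over pools. The share was 5.84% with Isotype Control (39 of 668 cells), 4.62% with Anti-PD-1 + Anti-CTLA-4 (51 of 1104), 4.08% with Anti-PD-1 (36 of 882), and 2.52% with Anti-CTLA-4 (27 of 1072). It was 2.29% with PancVAX (26 of 1136), 1.67% with PancVAX + Anti-PD-1 (38 of 2275), 1.17% with PancVAX + Anti-CTLA-4 (16 of 1364), and 0.285% with all 3 agents (5 of 1754). All 4 pools without PancVAX lay above all 4 with it, whereas the pools with and without each antibody overlapped. With a limit of 2 UMIs in place of 3 the separation was lost, since PancVAX (3.17%) then lay above Anti-CTLA-4 (2.61%), and the difference was −3.15 points (*P* = 0.0571, exact permutation test). Each pool with PancVAX still lay below the pool of the same antibodies without it. These values were 3.17% against 6.74% without antibody and 1.98% against 4.65% with anti–PD-1. They were 1.17% against 2.61% with anti–CTLA-4 and 0.342% against 5.25% with both. The test did not use this matching by antibody.

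Pools with PancVAX had 1.35% ± 0.846% and those without had 4.26% ± 1.38% (mean ± SD, *n* = 4 each), a difference of −2.91 points (*P* = 0.0286, exact two-sided permutation test, the smallest it can give, and 0.0857 adjusted over the 3 agents). Because 4 against 4 pools cannot go below 0.0857 after adjustment, no agent could pass 0.05. The differences were −0.291 points for anti–PD-1 (*P* = 0.886) and −1.32 points for anti–CTLA-4 (*P* = 0.371, 0.557 adjusted, exact permutation tests). Within the whole-tumor libraries the PancVAX difference was −2.84 points without overlap (*P* = 0.0286), and within the Percoll libraries −3.19 points with overlap (*P* = 0.0571, exact permutation tests). Counting near-identical barcodes once gave −3.05 points, and leaving out the Percoll library of PancVAX + Anti-PD-1, where that pool falls to 0.716%, gave −3.15 points.

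Depth per cell moved with this difference. Gated cells had a median of 3536 UMIs with PancVAX and 4959 without. After each gated cell was thinned to 1000 UMIs and called at 1 or more UMIs, the share was 1.33% ± 0.880% with PancVAX and 3.54% ± 1.01% without (*n* = 4 each), a difference of −2.21 points (*P* = 0.0571, 0.171 adjusted, exact permutation test). The highest pool with PancVAX (2.46%, PancVAX) then lay just above the lowest without (2.43%, Anti-CTLA-4). At 2000 UMIs per cell and 3 or more UMIs, PancVAX (2.04%) lay above Anti-PD-1 (1.91%) and Anti-CTLA-4 (1.42%), and the difference was −1.45 points (*P* = 0.0857, 0.257 adjusted, exact permutation test). After either thinning, each pool with PancVAX lay below the pool of the same antibodies without it. Among gated cells of 3000–10000 UMIs the pools did not overlap (at most 2.11% with PancVAX and at least 2.60% without), but depth still differed, with medians of 4158–4422.5 UMIs in the pools with PancVAX and 4686–5418 in those without. The number of gated cells was also higher with PancVAX (6529 against 3726), and the number of Gzm+ cells was 85 against 153, so that fewer such cells and dilution among other CD8+ T cells cannot be told apart in a share.

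**Figure D2:**
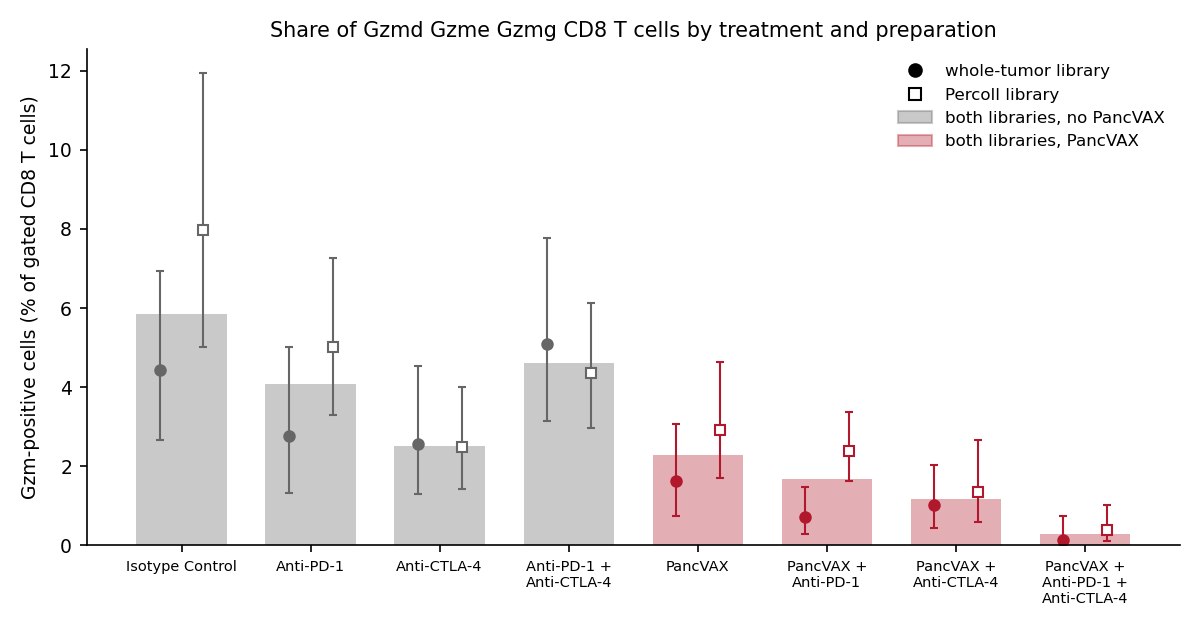
Gzm+ cells as a percentage of gated CD8+ T cells (vertical axis) in the 8 treatments. Bars give both libraries together, circles the whole-tumor and squares the Percoll library with exact 95% binomial intervals (counting error only), and bars run from 0.285% with all 3 agents to 5.84% with Isotype Control.

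The limits excluded cells with *Mki67*, a gene of cycling cells, and the granzymes were more frequent among those. With 3 or more UMIs of *Gzmd*, *Gzme*, and *Gzmg* there were 220 of 2592 otherwise alike *Mki67*-positive CD8+ T cells. By pool the share was 9.38% ± 5.37% in *Mki67*-positive and 2.81% ± 1.88% in *Mki67*-negative cells (*n* = 8 pools). It was higher in 8 of 8 pools, by 6.57 points on average (*P* = 0.0078, exact permutation test by sign change, the smallest it can give). The *Mki67*-positive share was 17.2% with Anti-PD-1, 15.5% with Isotype Control, 11.7% with both antibodies, and 8.89% with Anti-CTLA-4. With PancVAX it was 8.80%, and in its combinations 7.72% with Anti-CTLA-4, 3.68% with Anti-PD-1, and 1.55% with both. *Mki67*-positive cells were deep (median 8961 UMIs), and at 1000 UMIs per cell the shares were 7.81% and 2.43%, a difference of 5.38 points in the same direction in 8 of 8 pools (*P* = 0.0078, exact permutation test).

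**Figure D3:**
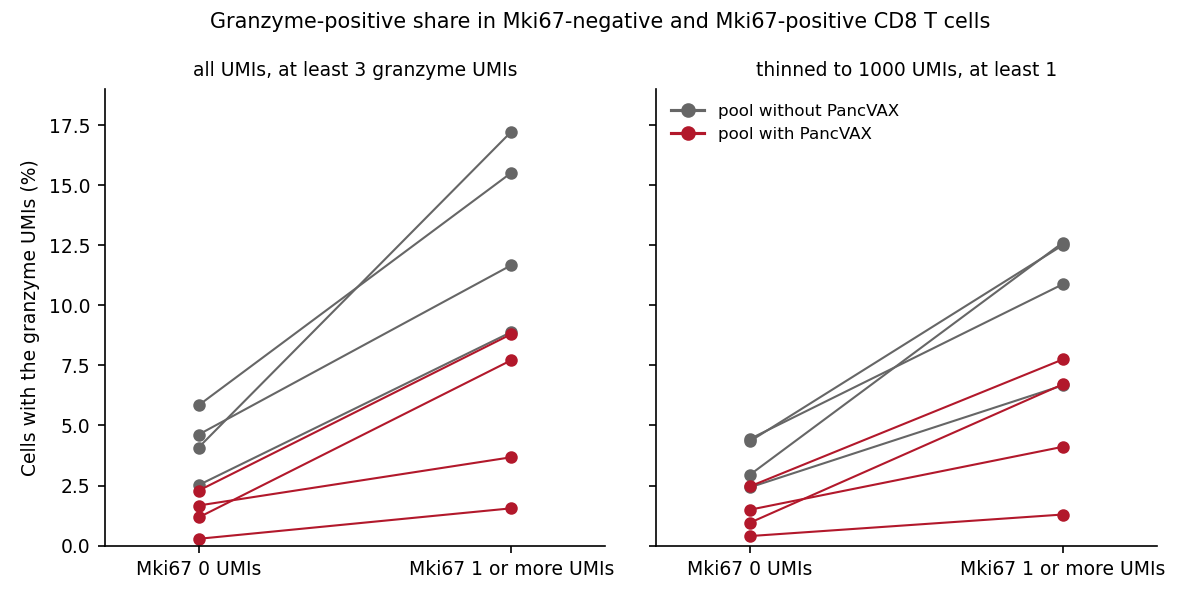
Percentage of CD8+ T cells with *Gzmd*, *Gzme*, or *Gzmg* UMIs (vertical axis) among *Mki67*-negative and *Mki67*-positive cells, with 1 line per treatment pool. Each of the 8 lines rises, at full depth (left, 3 or more UMIs) and after thinning to 1000 UMIs (right, 1 or more UMI).

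The other genes of these cells were compared with those of Gzm-zero cells of the same pool in the 7 pools with at least 10 Gzm+ cells. PancVAX + Anti-PD-1 + Anti-CTLA-4, with 5, was left out. UMIs were summed over cells and levels are given as CPM, counts scaled to library size with TMM factors, without the genes of the gate and without *Gzmc*, *Gzmf*, and *Gzmn*. A gene was called at an adjusted *P* below 0.05 and an absolute log2 fold change above 0.5. Of 9542 genes tested, 273 rose (2.86%) and 342 fell (3.58%), 6.45% together. Among cells of 3000–10000 UMIs 160 rose and 253 fell, whereas slightly more rose than fell by DESeq2 (317 against 302) and without the PancVAX pool (223 against 215). The level was higher in all 7 pools for 5.23% of genes and lower in all 7 for 6.38%, and in 3.88% the 7 pools of Gzm+ cells did not overlap the 7 pools of Gzm-zero cells. The median log2 fold change over all genes was −0.05. Adjusted *P* values below are from edgeR's quasi-likelihood test with Benjamini-Hochberg adjustment.

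Of 18 genes of the lytic granule tested, 7 rose in Gzm+ cells, 1 fell, and 10 did not pass, with a median log2 fold change of 0.23. *Prf1*, the pore-forming perforin, had 248–570 CPM (median 487) in Gzm+ pools and 65.6–143 CPM (median 94.9) in Gzm-zero pools, with no overlap, and rose by a log2 fold change of 2.25 ± 0.16 (SE, adjusted *P* = 1.6e-06). *Gzmb* had 1572–3604 CPM (median 2118) against 436–1554 CPM (median 610), also without overlap (1.67 ± 0.17, adjusted *P* = 2e-05). *Gzma* had 930–6613 CPM (median 4013) against 487–2110 CPM (median 1221) and was higher in 7 of 7 pools, although the ranges overlapped (1.49 ± 0.15). Its call was lost among cells of 3000–10000 UMIs. *Gzmk* was not called (−0.37 ± 0.21, adjusted *P* = 0.33), and *Fasl*, the death ligand of another killing pathway, fell by 0.66 ± 0.15.

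The list also held 3 intracellular serpins, a family of protease inhibitors, that rose. *Serpinb9b* had the highest fold change of the top rises, with 25.1–341 CPM (median 68.8) in Gzm+ and 2.32–12.2 CPM (median 4.86) in Gzm-zero pools (4.27 ± 0.33, adjusted *P* = 2.4e-06). Its relative *Serpinb9*, the inhibitor of granzyme B, had 215–447 CPM against 134–160 CPM (1.1 ± 0.14), and *Serpinb6b* had 304–469 CPM against 122–195 CPM (1.31 ± 0.12). In all 3 the Gzm+ and Gzm-zero pools did not overlap. *Rab27a*, which docks granules at the membrane, was higher in 7 of 7 pools (0.65 ± 0.17), but its call was lost when any of 5 pools was left out and among cells of 3000–10000 UMIs.

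Of 12 inhibitory receptors, 6 rose and none fell: *Havcr2* (48.0–127 against 18.1–35 CPM, 1.84 ± 0.18), *Entpd1* (65.3–127 against 33.5–53.0 CPM, 1.12 ± 0.13), *Pdcd1* (369–641 against 225–368 CPM, 0.67 ± 0.12), *Ctla4*, *Lag3*, and *Cd244a*. The *Cd244a* call was lost when any of 4 pools was left out. *Tigit* was not called (−0.17 ± 0.11, adjusted *P* = 0.42). Of 8 costimulatory receptors, 3 rose, namely *Tnfrsf4* (OX40, 154–409 against 64.0–92.8 CPM), *Tnfrsf9* (4-1BB, 509–1018 against 167–419 CPM), and *Tnfrsf18* (GITR, 0.73 ± 0.14). Among 13 cytokine receptors, *Il2ra* (36–158 against 20–31.7 CPM), *Il2rb*, and the IL-12 receptor subunit *Il12rb2* rose, and *Il18r1* and *Ifnar1* fell. The *Il18r1* call was lost when any of 5 pools was left out. Regulatory and helper T cells also express *Il2ra*, *Ctla4*, *Tnfrsf4*, and *Tnfrsf18*. A list of 5 markers of those cells that includes *Il2ra* was at 50.2–163 CPM over the 7 pools against 35–51.7 CPM in Gzm-zero cells, and without *Il2ra* at 8.23–20.8 against 13.1–22.4 CPM. In Gzm+ cells *Foxp3* had 1 UMI, and *Cd4* was at 0 by the gate.

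Of 21 transcription factors of T cell fate, 2 rose and 2 fell. *Irf8* had 430–831 CPM against 113–234 CPM without overlap (1.86 ± 0.20, adjusted *P* = 4.6e-05), and *Id2* rose by 0.63 ± 0.13. *Nfatc1* fell by 0.57 ± 0.13 and *Maf*, with 5 UMIs in Gzm+ cells, fell by 2.33 ± 0.55. The *Nfatc1* call was lost among cells of 3000–10000 UMIs, and the *Maf* call without the Anti-PD-1 + Anti-CTLA-4 pool. *Tox*, which drives the exhausted state, did not pass (−0.03 ± 0.17, adjusted *P* = 0.96), nor did *Tbx21* (0.04 ± 0.18, adjusted *P* = 0.94).

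Of 12 naive and stem-like genes, 8 fell and none rose, with a median log2 fold change of −2.24. *S1pr1*, the receptor by which lymphocytes leave tissue, had 2 UMIs over all 7 Gzm+ pools, and its level was 0.0129 of that in Gzm-zero cells (95% counting interval 0.00157–0.0468). *Tcf7*, the factor of stem-like T cells, had 3 UMIs and a ratio of 0.0300 (0.00618–0.0878), and *Slamf6* had 2 UMIs and a ratio of 0.0902 (0.0109–0.328). *Lef1* had 0–14.0 CPM against 19.4–54.6 CPM (−2.28 ± 0.31) and *Klf2* 55.9–189 CPM against 319–951 CPM (−2.21 ± 0.26), without overlap.

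Of 17 cytokines and chemokines, 4 fell, 2 rose, and 11 did not pass, with a median of −0.03. *Ccl5*, a T cell chemokine, had 323–508 CPM (median 364) in Gzm+ and 2665–11822 CPM (median 3697) in Gzm-zero pools (−3.82 ± 0.24, adjusted *P* = 5.7e-07). *Ccl4* had 81.7–374 against 448–997 CPM (−2.01 ± 0.22) and *Ccl3* medians of 47.0 and 170 CPM (−1.66 ± 0.23), and both were lower in 7 of 7 pools. *Xcl1* fell by 1.60 ± 0.43 but was lower in 5 of 7 pools only, and its call was lost when any of 5 pools was left out. The rises were *Tnfsf11* (RANKL, 1.58 ± 0.33) and *Areg* (amphiregulin, 1.37 ± 0.34), the latter no longer called by DESeq2 or when any of 3 pools was left out. Neither was higher in all 7 pools. *Ifng* did not pass (0.05 ± 0.15, adjusted *P* = 0.92).

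Of 15 chemokine receptors and integrins, 7 fell and none rose. *Cxcr3*, the receptor that guides effector T cells, had 2 UMIs over the 7 Gzm+ pools and a level of 0.0168 of that in Gzm-zero cells (95% counting interval 0.00203–0.0606). *Itgae*, the CD103 chain of tissue-resident T cells, had 1 UMI and a ratio of 0.0289 (0.000730–0.162). *Ccr2*, *Itgb7*, *Cxcr4*, *Cd69*, and *Itgb1* made up the rest, and *Cd69* had 58.3–185 against 159–377 CPM (−1.23 ± 0.12).

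Of 22 genes of glycolysis and hypoxia, 12 rose and none fell, with a median log2 fold change of 0.63. *Ldha*, which makes lactate, had 1150–1502 CPM (median 1320) in Gzm+ and 605–883 CPM (median 826) in Gzm-zero pools (0.73 ± 0.08), and *Slc16a3*, which exports it, had medians of 60.7 and 16.9 CPM (1.88 ± 0.22). The glucose transporter *Slc2a3* (1.38 ± 0.22), *Pgk1* (0.88 ± 0.10), and *Aldoa* (0.79 ± 0.08) likewise did not overlap between the groups of pools. Although cells with *Mki67* were excluded, 6 of 26 cell cycle genes rose, among them the centromere histone *Cenpa* (medians of 205 and 93.8 CPM) and the replication helicase subunit *Mcm5* (70–106 against 33.5–51.7 CPM), and 1, *Ccnd2*, fell (−1.07 ± 0.14). The *Mcm5* and *Stmn1* calls were lost among cells of 3000–10000 UMIs. Of 14 genes of amino acid transport and mTORC1 targets, *Odc1* and *Ddit4* rose, and both calls were lost at that depth.

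Of 17 interferon-stimulated genes, 11 fell and none rose, with a median of −1.09. *Ifi27l2a* had 9.89–133 CPM (median 48.0) in Gzm+ and 172–663 CPM (median 349) in Gzm-zero pools (−2.54 ± 0.27), without overlap. *Rsad2* had 1 UMI and a ratio of 0.0296 (95% counting interval 0.000748–0.165). All 5 MHC class II genes fell, by 1.01 to 1.74 on the log2 scale, and *Cd74* and *H2-Aa* were no longer called among cells of 3000–10000 UMIs. Markers of macrophages, which express MHC class II, were lower too. All 10 were detected in Gzm+ cells, and their summed level was 46.8–193 CPM over the 7 pools against 114–246 CPM in Gzm-zero cells. The part of such RNA in the result was not tested.

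Of 18 genes of heat shock and dissociation stress, 7 fell and none rose. *Hspa1a* had 8 UMIs in Gzm+ cells (0–7.00 against 20.1–103 CPM), and *Fos* lost its call in each of several alternatives, including DESeq2. Of 11 NK-type receptors, *Klrd1* (0.68 ± 0.12) and the signaling chain *Fcer1g* (1.07 ± 0.16) rose, and *Cd7* fell by 1.57 ± 0.20. Of 6 NK cell markers 3 were detected in Gzm+ cells, at a summed 39.8 CPM against 44.3 CPM in Gzm-zero cells of the 7 pools, and *Ncr1*, *Klra8*, and *Klra9* were at 0. Their part in the result was not tested.

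The remaining genes with the 10 largest rises included *Kit*, the receptor of stem cell factor, at 24.0–86.0 CPM in Gzm+ and 5.49–16.2 CPM in Gzm-zero pools (2.19 ± 0.31, adjusted *P* = 0.00038). *Kit* is also a mast cell gene. Of the 6 other mast cell markers 4 were detected in Gzm+ cells, with 5 UMIs in all, and *Ms4a2* and *Fcer1a* were at 0. Their summed level was 2.05 CPM (0–6.95 over the 7 pools) against 15.7 CPM (0.416–59.6) in Gzm-zero cells. *Serpine2*, a secreted protease inhibitor, had 30.3–108 against 2.53–20.9 CPM (3.17 ± 0.27). *Gipc2*, *Fcrl6*, *Upp1*, *Myo10*, *Cdkn2a*, and *Zbtb32* rose by 1.89 to 2.89 on the log2 scale. For all 8 the Gzm+ and Gzm-zero pools did not overlap. Fibroblast markers summed to 393 CPM in Gzm+ cells (18.1–1153 over the 7 pools) and 351 CPM in Gzm-zero cells (165–589). Tumor and epithelial markers summed to 404 CPM (18.1–725) and 482 CPM (298–613). The part of such RNA in these rises was not tested. The largest falls outside the lists were *Ly6c2* (32.9–269 against 359–1645 CPM, −2.73 ± 0.35) and *Ssh2* (0–17.7 against 29.5–91.7 CPM, −2.23 ± 0.29).

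**Figure D4:**
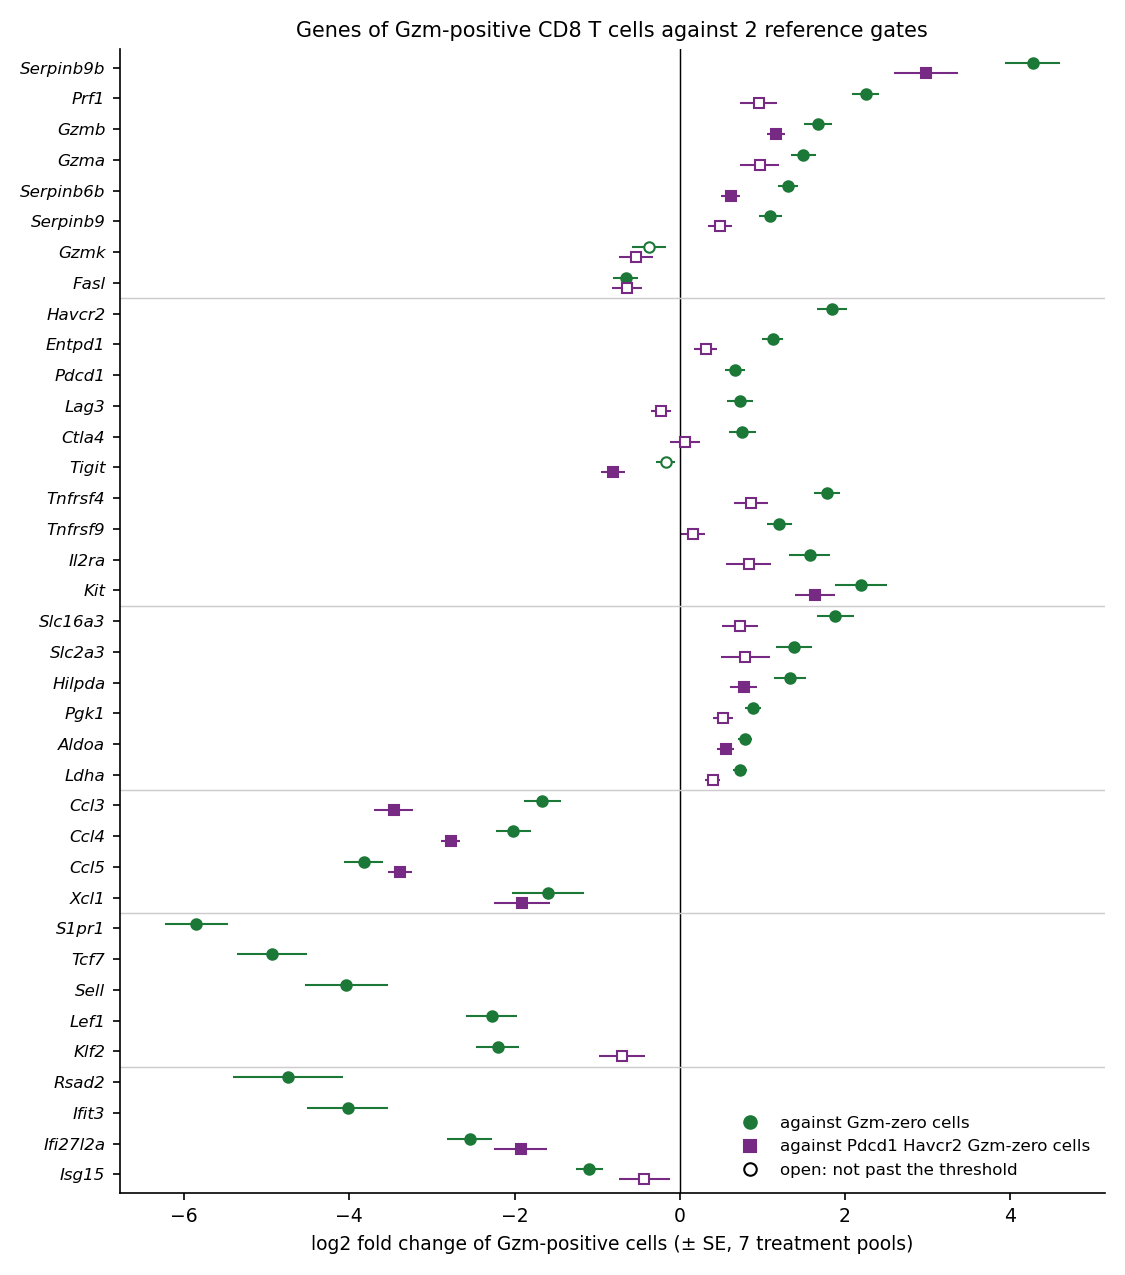
Log2 fold change of Gzm+ cells (horizontal axis, bars ± SE) for named genes, against Gzm-zero cells and against Gzm-zero cells with *Pdcd1* and *Havcr2* UMIs. *Prf1*, *Gzmb*, and *Serpinb9b* lie to the right and *Ccl3*, *Ccl4*, and *Ccl5* to the left in both comparisons, *Pdcd1* and *Havcr2* have no second value because they chose that reference, and other missing points were under the filter on low counts.

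Since Gzm-zero cells include naive-like and stem-like cells, the Gzm+ cells were also compared with the 667 Gzm-zero cells that had UMIs of both *Pdcd1* and *Havcr2*, whose depth (median 6072 UMIs) was nearer to theirs. Gzm+ cells were not chosen on *Pdcd1* and *Havcr2*, so that genes expressed along with these can be higher in the reference by that choice alone. Far fewer genes were called. Of 4765 tested, 30 rose (0.63%) and 18 fell (0.378%), 1.01% together. More genes fell than rose among cells of 3000–10000 UMIs (29 against 23), among cells of at most 10000 UMIs and 3000 genes (34 against 21), and without the filter on low counts (124 against 69). The same held with libraries as the unit (21 against 19) and without the Anti-PD-1 + Anti-CTLA-4 pool (10 against 7). The level was higher in all 7 pools for 2.75% and lower in all 7 for 2.39%, and in 0.756% the pools did not overlap. Leaving out the PancVAX pool left 14 calls, the Anti-PD-1 + Anti-CTLA-4 pool 17, the Anti-PD-1 pool 23, and the PancVAX + Anti-CTLA-4 pool 29.

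The largest falls were in chemokines. *Ccl4* had 85.6–399 CPM (median 168) in Gzm+ and 706–2072 CPM (median 1354) in reference pools (−2.77 ± 0.11, adjusted *P* = 2.5e-08). *Ccl5* had 331–532 CPM (median 389) against 2639–8389 CPM (median 4229) (−3.38 ± 0.15, adjusted *P* = 3.2e-08), and *Ccl3* had 19.6–127 CPM (median 49.4) against 418–1466 CPM (median 514) (−3.46 ± 0.23, adjusted *P* = 3e-06). None of the 3 overlapped, and their calls held in each alternative. *Xcl1* and *Ifng* also fell, the latter by 0.73 ± 0.14 (103–216 against 190–335 CPM), and both calls were lost when any of several pools was left out. In all, 5 of 13 cytokine and chemokine genes fell and none rose.

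Among lytic granule genes, 3 of 18 rose and none fell, with a median of 0.02. *Serpinb9b* had 25.8–359 against 5.50–24.8 CPM (2.98 ± 0.38, adjusted *P* = 0.0025), *Gzmb* 1655–3697 against 662–1666 CPM (1.16 ± 0.11), and *Serpinb6b* 320–491 against 199–346 CPM (0.61 ± 0.11). The *Gzmb* ranges touched, and its call was lost among cells of 3000–10000 UMIs. *Prf1* (0.95 ± 0.22, adjusted *P* = 0.059) and *Gzma* (0.97 ± 0.24, adjusted *P* = 0.079) did not pass, and *Prf1* passed by DESeq2 and with near-identical barcodes counted once.

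*Kit* (26.1–90.1 against 6.83–17.1 CPM, 1.64 ± 0.24), *Myo10* (1.15 ± 0.20), and *Ifitm2*, an interferon-induced membrane protein (1398–2172 against 587–929 CPM, 1.15 ± 0.08, adjusted *P* = 3e-06), rose without overlap, as did the cell cycle inhibitor *Cdkn1a* (1.38 ± 0.28). *Upp1*, *Serpine2*, *AA467197*, and *Tubb6* completed the 10 largest rises. *Irf8* rose (453–882 against 362–454 CPM, 0.77 ± 0.12), as did 4 of 20 glycolysis and hypoxia genes (*Aldoa*, *Eno1*, *Pgam1*, and *Hilpda*), each of whose calls was lost without single pools. *Mcm5* was the only called gene of 22 in the cell cycle list (0.80 ± 0.16).

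Of 9 inhibitory receptors tested, *Tigit* fell (162–229 against 282–428 CPM, −0.81 ± 0.14, adjusted *P* = 0.018) and none rose, where only the reference was chosen on *Pdcd1* and *Havcr2*. Neither *Lag3* (−0.23 ± 0.12, adjusted *P* = 0.49) nor *Ctla4* (0.06 ± 0.19, adjusted *P* = 0.95) passed, and of 8 costimulatory receptors none did. *Tox* had 51.8–165 against 182–223 CPM without overlap but did not pass (−0.63 ± 0.17, adjusted *P* = 0.11), and *Nfatc1* fell by 0.79 ± 0.14. Of 10 interferon-stimulated genes 2 fell, *Ifi27l2a* among them (−1.93 ± 0.32), and *Cd7* fell by 1.51 ± 0.22. *Galnt6*, *Slfn2*, *Zfp36l2*, and *Mxd4* completed the 10 largest falls, at −1.18 to −0.89. In the lists of chemokine receptors and integrins, cytokine receptors, naive genes, mTORC1 targets, heat shock, and MHC class II none of the tested genes was called.

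Genes of the Gzm+ cells themselves were then compared by treatment over the same 7 pools, with the 3 agents as terms. With PancVAX 1 of 5315 genes fell (0.0188%) and none rose (0%), and no gene was called for anti–PD-1 or anti–CTLA-4 (0%). An unadjusted *P* below 0.05 (edgeR) was found for 160 genes with PancVAX (3.01%), 203 for anti–PD-1 (3.82%), and 171 for anti–CTLA-4 (3.22%). DESeq2 called 4 genes for anti–PD-1 and 2 for anti–CTLA-4. The 1 gene called with PancVAX was *Trbv15*, a variable segment of the TCR beta chain (adjusted *P* = 0.035, edgeR). It had 86 UMIs in Isotype Control, 32 in Anti-PD-1, 9 in Anti-CTLA-4, and 8 in Anti-PD-1 + Anti-CTLA-4, and none in the pools with PancVAX. These 135 UMIs came from 7 cells, 44 of them from 1 cell. Over summed UMIs the level with PancVAX was at least 22.5-fold lower, set against a floor of 3 UMIs over the group. UMIs of 1 cell share its TCR, so that this gives no bound on a difference between treatments. The count of called genes with PancVAX was 0 without any 1 of 5 pools or with libraries as the unit, but 13 rose and 2 fell without Isotype Control, and 7 rose and 3 fell without the PancVAX pool. For anti–PD-1, 89 rose and 7 fell without Isotype Control, and for anti–CTLA-4, 2 rose and 15 fell without the PancVAX pool. In simulated counts with changes planted for PancVAX, the fit by treatment recovered 28% of 2-fold and 79% of 4-fold changes. Few calls therefore do not show that the Gzm+ cells were alike across treatments.

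Clonal expansion of the Gzm+ cells was read from the TCR contigs of the Percoll libraries, where a clone is the set of CD8+ T cells of a library with the same TRB rearrangement. A TRB chain was found for 137 of 154 Gzm+ cells. In the 6 libraries with at least 10 such cells, 93.3% ± 4.45% of Gzm+ cells lay in clones of 2 or more cells, against 68.3% ± 7.44% of the other gated cells. The share was higher by 25 points and in 6 of 6 libraries (*P* = 0.03125, exact permutation test by sign change, the smallest it can give). It was 100% against 65.2% with Isotype Control, 96.0% against 68.7% with Anti-PD-1, 86.7% against 73.9% with Anti-CTLA-4, and 92.9% against 77.0% with both antibodies. With PancVAX it was 92.9% against 55.7%, and with PancVAX + Anti-PD-1 91.7% against 69.5%.

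Set against other gated cells with *Pdcd1* and *Havcr2* UMIs (81.8% ± 12.6%), the difference was 11.5 points in 5 of 6 libraries and did not pass (*P* = 0.0938, exact permutation test). Counting near-identical barcodes once gave 26.1 points against all other gated cells. A TRB chain was found for 59.5% of gated cells in the PancVAX + Anti-PD-1 library and for 81.2–91.6% in the others.

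**Figure D5:**
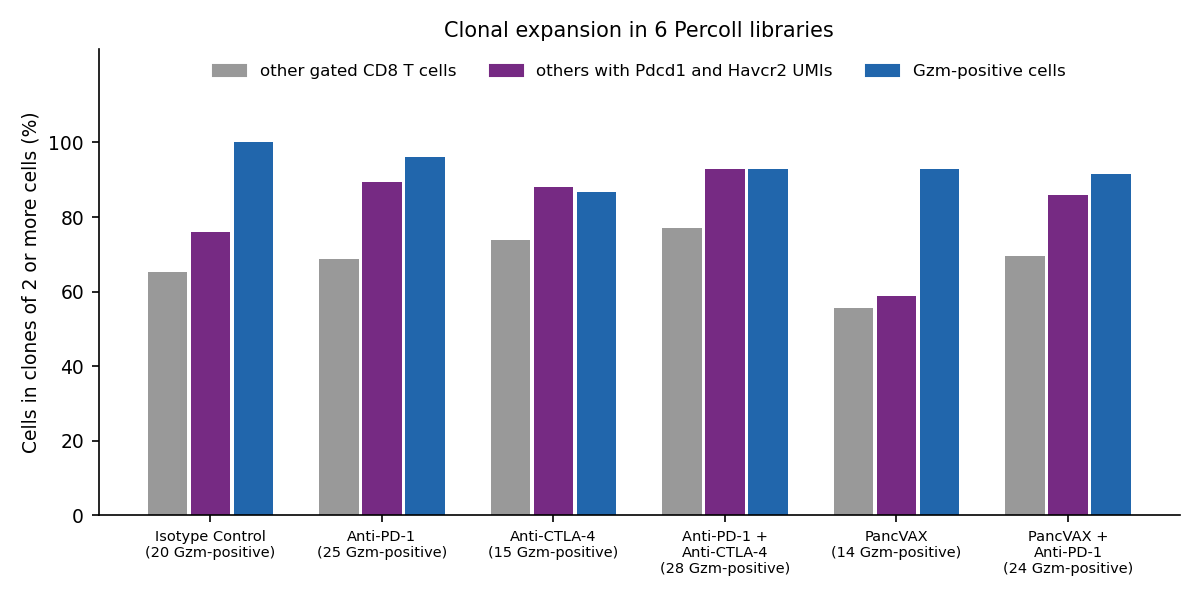
Percentage of cells in clones of 2 or more cells (vertical axis), as bars for each of 6 Percoll libraries. Bars give other gated CD8+ T cells, those of them with *Pdcd1* and *Havcr2* UMIs, and Gzm+ cells. Gzm+ cells were at 86.7–100% and lay above the other gated cells in each of the 6. With Anti-CTLA-4, others with *Pdcd1* and *Havcr2* UMIs (87.9%) lay above Gzm+ cells (86.7%).

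Gzm+ cells shared their clones with other states. The 137 cells belonged to 81 clones, of which 27 held 2 or more Gzm+ cells (83 cells), and 9 cells were alone in their clone. Of the 81 clones, 66 also held Gzm-zero cells (678 cells) and 52 held *Mki67*-positive cells (269 cells). Gzm-zero cells were 9842 of the 10255 gated cells, so that most clones of 2 or more cells would hold one. The share over all clones of like size was not computed. In Anti-PD-1, a TRBV13-1 clone of 64 cells held 6 Gzm+, 39 Gzm-zero, and 19 *Mki67*-positive cells. Of these 19, 7 also had 3 or more UMIs of *Gzmd*, *Gzme*, and *Gzmg*, and were outside the Gzm+ cells only by *Mki67*. A TRBV2 clone of 10 cells in PancVAX + Anti-PD-1 held 7 Gzm+ cells, all 7 among the near-identical barcodes. TRBV5 (21.9%), TRBV13-1 (16.8%), TRBV2 (14.6%), and TRBV26 (14.6%) were the most frequent segments in Gzm+ cells, against 13.4%, 10.3%, 4.01%, and 6.31% of Gzm-zero cells, where members of 1 clone share their segment.

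Some TRB rearrangements of Gzm+ cells were alike across treatments, and of 80 rearrangements 6 were found in more than 1 library (33 of 2404 over all gated and *Mki67*-positive cells), with no 16-base barcode shared between their cells. The 2404 include rearrangements seen in 1 cell, whereas only 9 of the 137 Gzm+ cells were alone in their clone. A rearrangement with more cells is more readily found in another library. Clone size was not matched, so that this sharing cannot be called particular to Gzm+ cells. Grouped by V segment, length, and at most 3 differing bases, 16 clones formed 7 families with 42 Gzm+ cells, of which 1 family (TRBV13-1, 8 Gzm+ cells) lay within Anti-PD-1 alone. The 42 include the 7 near-identical barcodes of the TRBV2 clone of PancVAX + Anti-PD-1. Clones without Gzm+ cells were not grouped in this way, so that such families cannot be called particular to Gzm+ cells. A pair of families that span 3 libraries each is shown by the CDR3 of TRB, the part that contacts the peptide, with capitals for bases that differ from the first sequence of the family.
TRBV16, Anti-PD-1 + Anti-CTLA-4: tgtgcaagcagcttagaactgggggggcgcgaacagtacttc
TRBV16, Isotype Control: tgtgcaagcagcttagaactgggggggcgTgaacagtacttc
TRBV16, PancVAX: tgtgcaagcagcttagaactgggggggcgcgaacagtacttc
TRBV2, PancVAX + Anti-PD-1: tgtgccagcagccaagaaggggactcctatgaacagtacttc
TRBV2, Anti-PD-1 + Anti-CTLA-4: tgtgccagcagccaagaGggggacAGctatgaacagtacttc
TRBV2, PancVAX + Anti-CTLA-4: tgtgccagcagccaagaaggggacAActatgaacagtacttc
The 3 TRBV16 clones had 64, 11, and 5 cells, of which 2 each were Gzm+. TRAV7D-2 was the most frequent alpha segment of their Gzm+ cells, read from 2, 1, and 2 cells. The TRBV2 clones had 10, 31, and 12 cells with 7, 3, and 3 Gzm+ cells. Most frequent in these Gzm+ cells was TRAV12-2 in the first clone and TRAV6-6 in the latter 2, read from 6, 3, and 3 cells. Alpha chains of the other cells of these clones were not compared. The antigen of none of these receptors was measured here.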

How the data were processed

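Raw UMI counts per gene and barcode were deposited by the authors, who made them from 5′ single-cell libraries with Cell Ranger 4.0.0 (mm10), with TCR contig tables for the 8 Percoll libraries. All 16 RNA libraries were used, without an upper UMI limit or doublet caller. Members and gene lists were chosen with earlier results of these data known. UMI counts were summed per pool and tested with edgeR 4.0.16 (quasi-likelihood, TMM, pool as block, R 4.3.3), leaving out 14 genes of the gate and granzyme cluster from library sizes and tests. DESeq2 1.42.0 was an alternative. Shares were compared by exact two-sided permutation (Python 3.11.15, scipy 1.17.1), over 70 placements of an agent on 4 of 8 pools or 256 sign changes. Pool pairing came from the treatment, since both groups of cells come from the same libraries. Named genes were 2 to 6 per list and the 10 largest rises and falls called, at a mean of 20 CPM or more and in 1 direction in every pool. In several lists more than 6 were named, after their values were seen. Intervals are exact 95% and cover counting error only. The script was tested on simulated data. Some genes counted in the lists are not reported here singly.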

Additional observations from a re-analysis of the deposited data

Results flagged for a closer look

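In 16 of 205 groups of 4 to 8 pools (7.80%) 1 pool stood far from the others by Dixon's test for an outlying value. The limits of that test give about 1 in 20 by chance only for normally distributed values. A gene with 1 UMI in all is always flagged, so that 7.80% cannot be set against that rate. The share of *Mki67*-positive cells with 3 or more granzyme UMIs was 15.5% with Isotype Control, far above the other pools without anti–PD-1. In Gzm+ cells, *Fasl* was highest with PancVAX (108 CPM), as was *Rsad2* (4.30 CPM, from 1 UMI in all). *Cxcr3* and *Slamf6* were both highest with PancVAX + Anti-CTLA-4 (6.01 CPM each), and *Itgae* with Anti-PD-1 (2.47 CPM), each from 1 or 2 UMIs in all. *Fos* was highest with Isotype Control (1315 CPM), and *Hspa1b* (42 CPM) and *Dnajb1* (343 CPM) with PancVAX + Anti-PD-1, the treatment whose Percoll library held the near-identical barcodes.

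In Gzm-zero cells, PancVAX stood apart for *Gzmb* (1554 CPM) and *Ifi27l2a* (663 CPM), Isotype Control for *Kit* (16.2 CPM), and PancVAX + Anti-CTLA-4 for *Dnajb1* (393 CPM). In Gzm-zero cells with *Pdcd1* and *Havcr2* UMIs, PancVAX stood apart for *Upp1* (52.2 CPM) and *Serpine2* (88.0 CPM), and Isotype Control for *Ccl3* (1466 CPM).

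Barcodes with no *Cd3d*, *Cd3e*, or *Cd3g* UMI, which no comparison used, could also hold 3 or more UMIs of *Gzmd*, *Gzme*, and *Gzmg*. They made up 0.222% of such barcodes with PancVAX (22 barcodes, 8 of them near-identical to another) against 0.150% with Isotype Control (18 barcodes). The other pools with PancVAX had 0.0160–0.106% and the other pools without it 0.0580–0.116%, so that PancVAX alone was the highest pool and its combinations were not raised.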

How the results depend on the processing

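Each pool holds several mice as 1 sample, and counts of 1 to 3 UMIs limit the low genes. Against *Pdcd1* *Havcr2* Gzm-zero cells, 193 genes were called without the filter on low counts in place of 48, and 14 to 57 with 1 pool left out. With PancVAX in place of 1 gene there were 2 by DESeq2, 41 without the filter, and 0 with libraries as the unit, and 0 to 15 with 1 pool left out. For anti–PD-1 there were 4 by DESeq2, 127 without the filter, and 0 to 96 with 1 pool left out, and for anti–CTLA-4 2, 88, and 0 to 17. The cause was not tested. The anti–PD-1 difference in share, −0.291 points, reversed to 0.671 without Isotype Control, 0.0407 without PancVAX + Anti-PD-1, and 0.502 without the pool of all 3 agents (range −0.942 to 0.671). At 1 depth it reversed to 0.372, 0.0490, and 0.414 (range −0.932 to 0.414). The anti–CTLA-4 difference in share, −1.32 points, was −0.531 without Isotype Control and −2.14 without Anti-PD-1 + Anti-CTLA-4. With 1 pool left out the PancVAX difference ranged from −3.49 to −2.39 points, and from −2.59 to −1.90 at 1 depth. Over the other alternatives it ran from −4.28 (no condition on *Mki67*) to −2.18 (at least 5 UMIs), and was −1.45 after thinning to 2000 UMIs. The difference in expanded clones ranged from 22.6 to 27.5 points with 1 library left out, where P cannot go below 0.0625 in this exact test, and was 11.5 points against *Pdcd1* *Havcr2* cells. Without the replicate block for the pairing of pools, 646 genes were called against Gzm-zero cells in place of 615, and 47 in place of 48. Between 438 and 628 were called with 1 pool left out. Chosen after seeing the data were the settings without the Percoll library of PancVAX + Anti-PD-1, the upper limits of UMIs and genes in the gene comparisons, and near-identical barcodes counted once. The last gave 720 and 72 calls, of which 592 and 46 were also called with all barcodes. No named gene reversed its direction against either reference.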
